A study of Mus musculus with 20 samples.

Results

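Genes of red blood cells were followed in kidney RNA from normal and Hyp mice through every feature of the array that the platform annotation assigns to Hba-a1, Hbb-b2, Slc4a1 or Alas2 alone. The rule found 4 probe sets, 1 per gene, among 10833 that name a single gene. A probe set is the group of short oligonucleotides on the array that reports 1 transcript. The probe sets were 94781_at for Hba-a1 on chromosome 11, 103534_at for Hbb-b2 on chromosome 7, 101077_at for Slc4a1 on chromosome 11 and 92768_s_at for Alas2 on the X chromosome. All 4 passed the filter on low values that 8695 of 12422 probe sets passed.

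The study fed C57BL/6J mice a control diet or a low phosphate diet, in animals that were either normal or carried Hyp, the Phex mutation used as a model of X-linked hypophosphatemia. Crossing both genotypes with both diets gave 4 groups of 5 arrays: normal or Hyp mice, each fed either diet. Each array held kidney RNA pooled from 3 mice, so the spread between arrays is that between pools. Mice were fed for 5 days on 12 arrays and for 3 days on 8, and 12 arrays were from males and 8 from females, in the same mixture in every group. Their age is not given in the sources used.

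Red blood cells carry oxygen on hemoglobin, a tetramer of alpha and beta globin chains that each hold a heme. Maturing red cells make both globins under the transcription factors GATA1 and KLF1, and reticulocytes, the youngest circulating cells, still hold globin mRNA after the nucleus is lost. Kidney RNA therefore carries these transcripts from the blood in its vessels, and the kidney is also the main source of erythropoietin, the hormone that drives red cell production. Hba-a1 encodes an adult alpha globin and Hbb-b2 an adult beta globin. In the strain used here the adult beta globin genes are Hbb-bs and Hbb-bt, and Hbb-b2 is the name the annotation gives the probe set. Values given for Hbb-b2 are thus those of a beta globin probe set, and which of these genes it read was not tested. Alas2 encodes the erythroid form of 5-aminolevulinate synthase, the first enzyme of heme synthesis. Slc4a1 encodes the chloride and bicarbonate exchanger AE1, or band 3, of the red cell membrane, and alpha intercalated cells of the kidney collecting duct make a shorter form of it.

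The 250 bases before the transcription start are shown for the members the reference table holds. They come from RefSeq on GRCm38.p6, and capitals mark the letters searched on both strands, GATA preceded by A or T and followed by A or G for a GATA motif and CACCC for the motif of the KLF family. The 2 motifs share no letters here. Hba-a1 and Alas2 were matched, while Slc4a1 and Hbb-b2 were not. Hbb-bs and Hbb-bt, the adult beta globin genes of C57BL/6J, are added because a further probe set, 101869_s_at, names them together with Hbb-b2 and Hbb-b1. The windows are chr11:32283422-32283671 on the plus strand for Hba-a1, chrX:150547167-150547416 on the plus strand for Alas2, chr7:103827929-103828178 on the minus strand for Hbb-bs and chr7:103813924-103814173 on the minus strand for Hbb-bt.
Hba-a1: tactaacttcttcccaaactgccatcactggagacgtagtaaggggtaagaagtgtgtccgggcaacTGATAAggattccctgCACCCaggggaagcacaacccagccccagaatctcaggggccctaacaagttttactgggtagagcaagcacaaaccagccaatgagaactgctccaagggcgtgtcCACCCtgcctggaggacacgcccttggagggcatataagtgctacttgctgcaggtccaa
Alas2: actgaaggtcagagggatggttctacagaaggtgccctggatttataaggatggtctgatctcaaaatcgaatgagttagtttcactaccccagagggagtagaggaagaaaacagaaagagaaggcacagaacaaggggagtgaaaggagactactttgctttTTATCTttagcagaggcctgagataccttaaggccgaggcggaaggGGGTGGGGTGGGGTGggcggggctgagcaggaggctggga
Hbb-bs: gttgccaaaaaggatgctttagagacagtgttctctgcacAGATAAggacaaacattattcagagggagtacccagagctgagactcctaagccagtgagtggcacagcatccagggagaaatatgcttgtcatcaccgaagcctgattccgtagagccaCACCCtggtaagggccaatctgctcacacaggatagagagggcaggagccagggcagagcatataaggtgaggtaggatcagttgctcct
Hbb-bt: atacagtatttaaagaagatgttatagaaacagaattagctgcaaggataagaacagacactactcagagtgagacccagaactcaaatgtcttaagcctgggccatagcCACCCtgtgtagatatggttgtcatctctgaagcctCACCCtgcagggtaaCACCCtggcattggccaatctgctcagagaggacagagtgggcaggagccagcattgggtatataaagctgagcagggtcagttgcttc
Hba-a1 held 1 GATA motif and 2 CACCC motifs, Alas2 held 1 and 3, Hbb-bs held 1 and 1, and Hbb-bt held 0 and 3. Of 32851 windows of the same length in the table, 26.5% held a GATA motif, 52.0% a CACCC motif and 11.8% both. A match describes these letters and does not show that a factor binds them.

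Every array was bright for transcripts of the tubule, with Slc34a1, the phosphate transporter of the proximal tubule, between 8769.5 and 17165.9 in intensity, a linear brightness that the authors scaled to a common trimmed mean of 500.25 to 500.31 on every array. Phex itself was dim, at 19.1 to 88.8 in normal and 11.5 to 106.3 in Hyp arrays, below the filter, a mean of 79.44, so it gave no check of the genotype labels. The 4 female arrays at 5 days, numbered 05 to 08, stood apart: their median rank correlation with the other arrays was 0.895 to 0.934, against 0.943 to 0.969 for the remaining 16. Their 3' to 5' ratio of beta actin control probe sets, a measure of RNA integrity, was 1.75 to 2.63 against 1.22 to 1.99. Array 10, Hyp on low phosphate diet, read 13096.7 for the liver gene Alb, which was looked at outside the naming rule, while the 4 other arrays of its group read 90.3 to 1226.0. The genotype and diet calls of named genes are given with and without these arrays.

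Slc4a1 was the member that passed the test, and it was higher in Hyp kidneys. On control diet the 5 normal arrays read 420.2, 426.9, 482.8, 537.5 and 387.2 (arrays 01, 05, 11, 15 and 19). The 5 Hyp arrays on the same diet read 572.8, 547.3, 474.7, 561.3 and 772.7 (arrays 03, 07, 09, 13 and 17). All but 1 of the Hyp arrays, array 09, lay above the highest normal array, and array 17 stood well above the rest. On low phosphate diet the normal arrays read 387.0, 415.1, 338.8, 370.5 and 440.1 (arrays 02, 06, 12, 16 and 20). The Hyp arrays on that diet read 493.8, 551.7, 449.3, 549.4 and 500.9 (arrays 04, 08, 10, 14 and 18). Here the lowest Hyp array, 449.3, was above the highest normal array, 440.1, and the groups did not overlap. Of all probe sets tested, 0.518% (45 of 8695) had every Hyp array above every normal array on low phosphate diet, and the same share, 0.518%, did on control diet, where Slc4a1 was not among them.

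Mean Slc4a1 intensity on control diet was 450.9 ± 59.4 (SD, n = 5) in normal and 585.8 ± 111 in Hyp mice. On low phosphate diet it was 390.3 ± 39.2 in normal and 509.0 ± 42.8 in Hyp mice, again over 5 arrays each. Averaged over diets, the Hyp minus normal difference was 0.35 ± 0.08 (SE) on the scale of log2(intensity + 38), a fold of 1.27, with a 95% interval of 0.18 to 0.52 and an adjusted p of 0.0426 (limma, all 20 arrays, Benjamini-Hochberg over 8695 probe sets). In that comparison 1.28% of probe sets passed (111, of which 67 were higher in Hyp), and Slc4a1 ranked 100 by p. The 10 pairs of arrays matched for diet, sex and days were all higher in Hyp, by 0.03 to 0.64. The male 5 day arrays, 2 in each group, were paired within 01 to 04 and within 09, 10, 19 and 20. Arrays 09 and 10 were Hyp and arrays 19 and 20 normal, so genotype and array number cannot be told apart there. The low phosphate pair of these arrays gave the smallest Slc4a1 difference, 0.03. It also gave the largest of Hba-a1 (0.87), Hbb-b2 (0.92) and Alas2 (1.30). Within a single diet the difference was of like size but did not pass: it was 0.34 (adjusted p = 0.42) on control diet, where 0.253% of probe sets passed, and 0.35 (adjusted p = 0.325) on low phosphate diet, where 0.357% did.

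The call for Slc4a1 lay close to the threshold. Without arrays 05 to 08 the difference stayed at 0.35 and the adjusted p rose to 0.136, and without array 10 they were 0.36 and 0.0624. Leaving out each array in turn kept the call for 3 of 20 arrays, with differences of 0.31 to 0.38 and adjusted p-values of 0.0297 to 0.105.

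**Figure D1:**
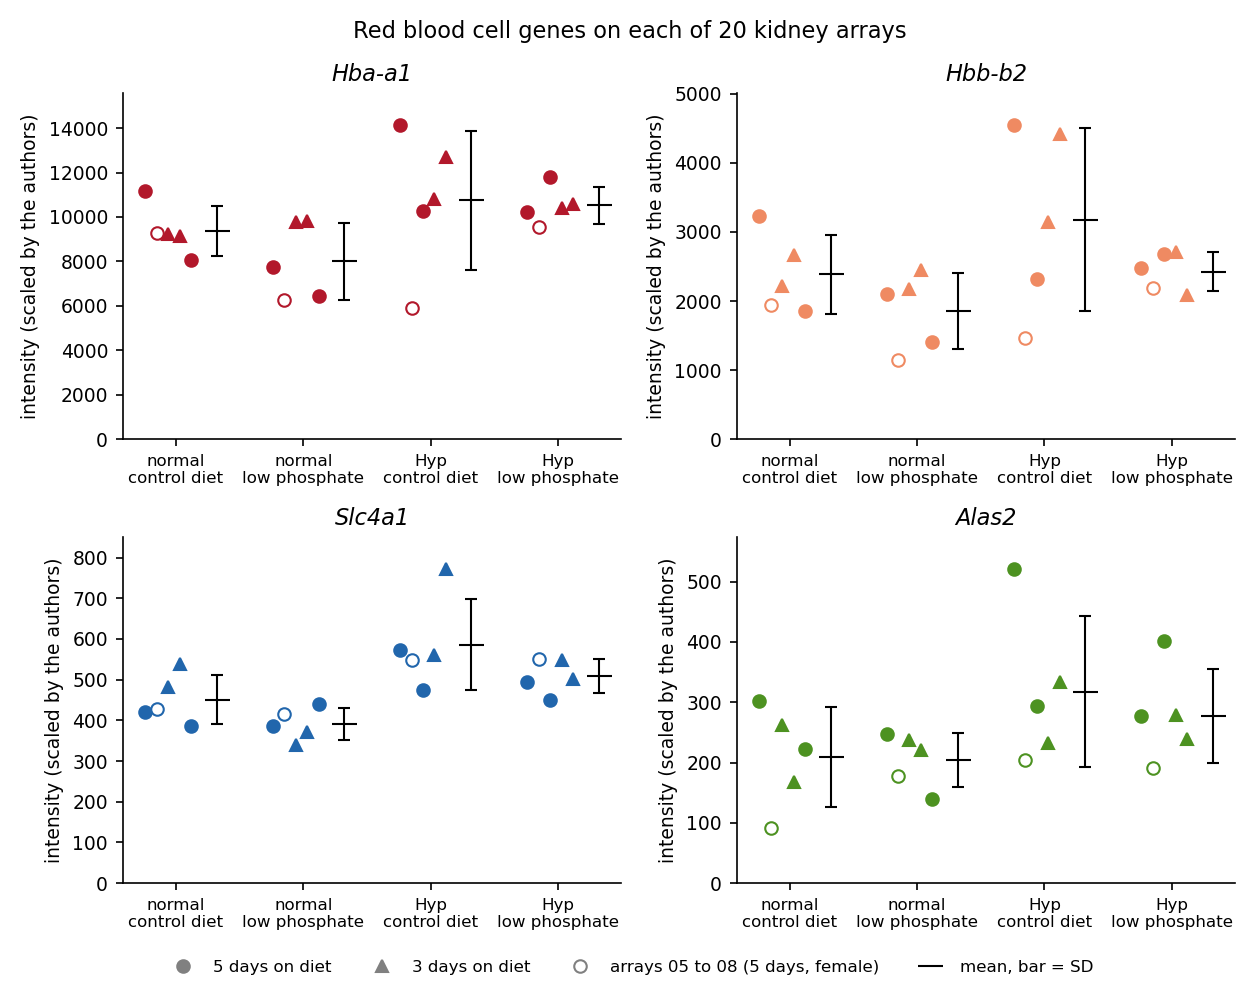
Intensity of each member on every array, by genotype and diet, on linear axes that start at 0. Circles are 5 day and triangles 3 day arrays, open circles are arrays 05 to 08, and the bar to the right of each group is the mean with its SD (n = 5). Slc4a1 shows Hyp arrays on low phosphate diet, 449.3 to 551.7, above normal arrays on that diet, 338.8 to 440.1, while the ranges of the other 3 genes overlap on both diets.

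Hba-a1, the alpha globin, was higher in Hyp by a smaller margin relative to its spread and did not pass the test. Normal arrays on control diet read 11166.1, 9281.2, 9248.5, 9139.4 and 8075.4 for arrays 01, 05, 11, 15 and 19. Hyp arrays on control diet read 14137.3, 5908.5, 10264.1, 10788.9 and 12687.0 for arrays 03, 07, 09, 13 and 17. These Hyp arrays included the highest value of the series, array 03, and the lowest, array 07, so they enclosed the normal range. Normal arrays on low phosphate diet read 7758.3, 6284.9, 9795.7, 9810.7 and 6440.3 for arrays 02, 06, 12, 16 and 20. Hyp arrays on low phosphate diet read 10232.0, 9566.0, 11805.2, 10418.4 and 10568.4 for arrays 04, 08, 10, 14 and 18. On this diet 4 of 5 Hyp arrays were above every normal array, and the ranges overlapped through array 08.

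Averaged over diets, Hba-a1 differed by 0.28 ± 0.12 (SE) on the log2 scale, a fold of 1.21 (95% interval 0.03 to 0.53, adjusted p = 0.28). It was higher in Hyp in 9 of 10 matched pairs, and the exception was the female 5 day pair on control diet, arrays 07 and 05, at -0.65. The difference was 0.15 on control diet (adjusted p = 0.824) and 0.41 on low phosphate diet (adjusted p = 0.456). The Hyp arrays on low phosphate diet were close together, with an SD of 815.1 around 10518, against 3118.6 around 10757 in Hyp mice on control diet.

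Hbb-b2, the beta globin, followed the alpha globin. Normal arrays on control diet read 3237.5, 1944.6, 2217.6, 2667.1 and 1862.6 for arrays 01, 05, 11, 15 and 19. Hyp arrays on control diet read 4546.5, 1472.1, 2319.0, 3142.1 and 4415.6 for arrays 03, 07, 09, 13 and 17. Again array 07 was below every normal array of its diet, and arrays 03 and 17 were above all of them. Normal arrays on low phosphate diet read 2104.8, 1155.5, 2175.5, 2454.0 and 1405.6 for arrays 02, 06, 12, 16 and 20. Hyp arrays on low phosphate diet read 2478.4, 2184.0, 2684.7, 2703.3 and 2084.4 for arrays 04, 08, 10, 14 and 18. The groups overlapped on both diets, and 3 of 5 Hyp arrays on low phosphate diet were above every normal array. The averaged difference was 0.37 ± 0.16 (SE), a fold of 1.30, with a 95% interval of 0.05 to 0.70 and an adjusted p of 0.278, and 8 of 10 matched pairs were higher in Hyp.

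Near-identical copies limit what the globin probe sets can tell apart. The probe set 101869_s_at, which names Hbb-bt, Hbb-bs, Hbb-b2 and Hbb-b1, followed Hbb-b2 over the 20 arrays with a Pearson correlation of 0.964, and its averaged Hyp minus normal difference was 0.27 ± 0.12 (SE, adjusted p = 0.304). The probe set 162457_f_at, which names Hba-a2 and Hba-a1, correlated with Hba-a1 at only 0.253 and differed by 0.14 ± 0.13 (SE, adjusted p = 0.637). A second probe set for the 4 beta globin genes, 160560_at, had a mean of 19.6 and fell below the filter. The embryonic globins were dim: Hba-x had a mean of 171.2, Hbb-bh1 one of 75.7 and Hbb-y one of 83.9 on its brighter probe set.

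Alas2, like Hbb-b2, varied widely between arrays. Normal arrays on control diet read 301.9, 91.5, 262.2, 167.3 and 222.6 for arrays 01, 05, 11, 15 and 19. Hyp arrays on control diet read 521.4, 204.4, 294.3, 232.5 and 334.3 for arrays 03, 07, 09, 13 and 17. Array 03 was again the highest of the series and array 05 the lowest. Normal arrays on low phosphate diet read 247.1, 177.8, 236.7, 220.1 and 140.3 for arrays 02, 06, 12, 16 and 20. Hyp arrays on low phosphate diet read 276.8, 190.8, 401.4, 279.5 and 238.9 for arrays 04, 08, 10, 14 and 18. The ranges overlapped on both diets. The coefficient of variation of intensity over all 20 arrays was 37.2% for Alas2, against 35.2% for Hbb-b2, 21.5% for Hba-a1 and 20.2% for Slc4a1. On the log2 scale the order of the first 2 turned, with an SD of 0.482 for Hbb-b2 and 0.456 for Alas2.

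Averaged over diets, Alas2 had the largest difference of the members, 0.45 ± 0.14 (SE), a fold of 1.37, with a 95% interval of 0.15 to 0.76, but its adjusted p was 0.166. It was higher in Hyp in 9 of 10 matched pairs, by up to 1.30 in the pair of arrays 10 and 20, the former being the array with high Alb. The difference was 0.54 on control diet (adjusted p = 0.518) and 0.37 on low phosphate diet (adjusted p = 0.595).

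All 4 genes thus had a positive averaged difference, and 1 of the 4 passed. Without arrays 05 to 08 the differences of Hba-a1, Hbb-b2 and Alas2 were 0.35, 0.40 and 0.44, with adjusted p-values of 0.21, 0.317 and 0.279, and without array 10 they were 0.26, 0.36 and 0.41. The median difference of all 8695 probe sets was 0.02, and 55.2% of them were positive. For the members that did not pass, a difference was not established. Were the values higher in Hyp, the array could not tell apart more red blood cells, more transcripts per cell or, for Slc4a1, intercalated cells.

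**Figure D2:**
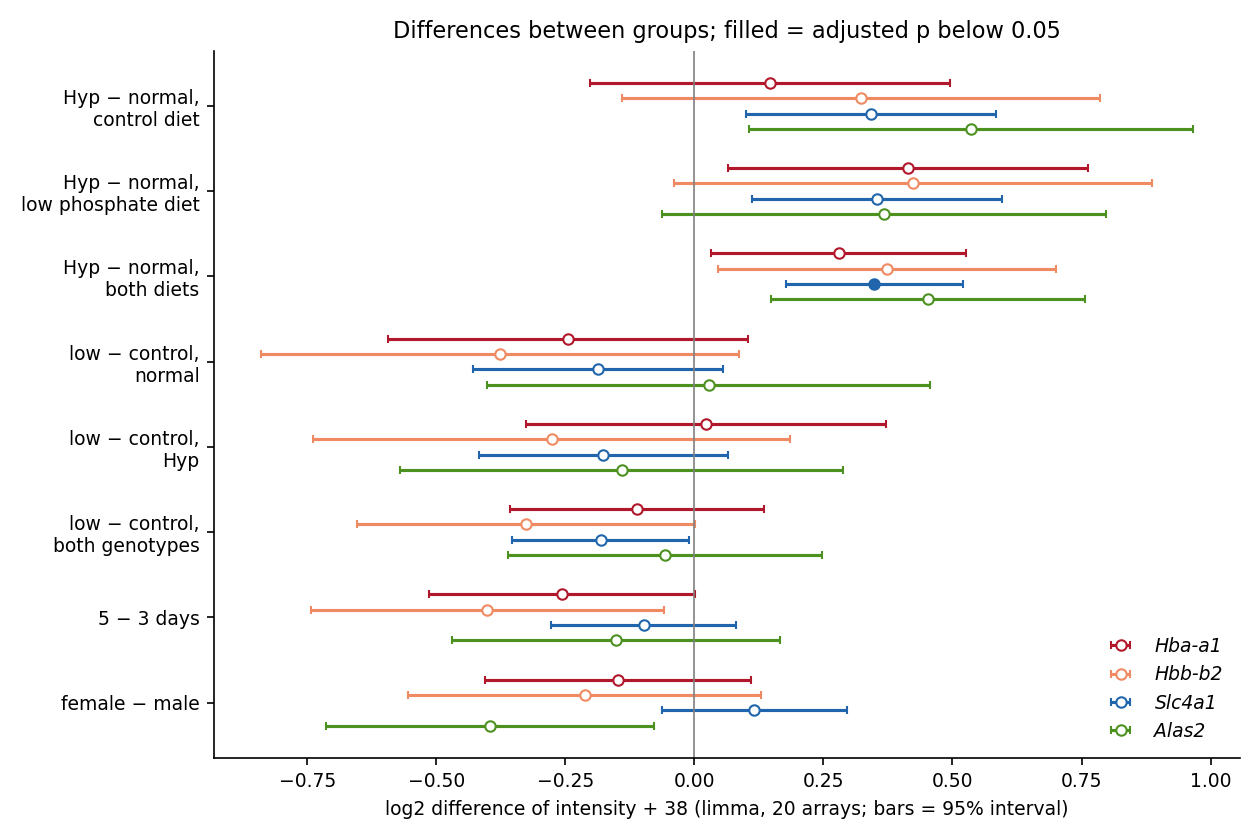
Log2 differences of intensity + 38 for the 4 members in 8 comparisons, with 95% intervals from limma on 20 arrays. Filled points passed an adjusted p of 0.05, which only Slc4a1 did, at 0.35 for Hyp minus normal over both diets, while no point passed in the comparisons of diet, days or sex.

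No member passed the test between the diets. The share of probe sets that passed was 0.184% in normal mice, 0.15% in Hyp mice and 0.472% averaged over genotypes. Slc4a1 had an averaged difference of -0.18 ± 0.08 (SE, unadjusted p = 0.0387, adjusted p = 0.475) and Hbb-b2 one of -0.33 ± 0.16 (unadjusted p = 0.0502, adjusted p = 0.513), and for each of them 8 of 10 matched pairs were lower on low phosphate diet. The 95% intervals were -0.35 to -0.01 for Slc4a1 and -0.65 to 0.00 for Hbb-b2. Hba-a1 differed by -0.11 (adjusted p = 0.828) and Alas2 by -0.06 (adjusted p = 0.946). In normal mice Hbb-b2 was lower on low phosphate diet in 5 of 5 matched pairs, by 0.03 to 0.73 on the log2 scale, with a difference of -0.38 ± 0.22 (SE) and an adjusted p of 0.682.

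The diet difference of no member depended on genotype by the test of the interaction, which 0.046% of probe sets passed. The interaction was 0.27 ± 0.23 (SE) for Hba-a1, 0.10 ± 0.31 for Hbb-b2, 0.01 ± 0.16 for Slc4a1 and -0.17 ± 0.29 for Alas2, each with an adjusted p of 1. The 95% intervals reached from -0.33 to 0.35 for Slc4a1 and were wider for the others.

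Days on diet were compared next. The member probe sets of both globins read lower at 5 than at 3 days without passing: Hbb-b2 by -0.40 ± 0.16 (SE, adjusted p = 0.0573) and Hba-a1 by -0.26 ± 0.12 (adjusted p = 0.102). The probe set 162457_f_at, which names Hba-a2 and Hba-a1, read higher instead and passed, by 0.37 ± 0.14 (SE, adjusted p = 0.0385). These alpha globin probe sets thus differed in sign, though the lower reading of Hba-a1 did not pass. Whether 162457_f_at still read higher without arrays 05 to 08 was not examined. The shared beta globin probe set 101869_s_at read lower, by -0.22 ± 0.13 (SE, adjusted p = 0.162). Slc4a1 differed by -0.10 (adjusted p = 0.371) and Alas2 by -0.15 (adjusted p = 0.438). In this comparison 40.9% of all probe sets passed, and without arrays 05 to 08 the count fell from 3554 to 26. Without those 4 arrays the difference was -0.05 for Hbb-b2 (adjusted p = 0.901), -0.05 for Hba-a1 (adjusted p = 0.858) and 0.15 for Alas2 (adjusted p = 0.686). At 5 days Hbb-b2 averaged 1689 ± 463 (SD) on the 4 female arrays 05 to 08 and 2580 ± 964 on the 8 male arrays, against 2732 ± 763 on the 8 arrays at 3 days. Hba-a1 averaged 7760 ± 1930 on arrays 05 to 08, 9985 ± 2486 on the 8 male 5 day arrays and 10307 ± 1132 at 3 days. Their part in the result cannot be told apart from that of female mice at 5 days.

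Whether an effect differed between 3 and 5 days was tested directly, and 0% of probe sets passed either for the diet effect (276 at an unadjusted p under 0.05) or, again 0%, for the genotype effect (424 at an unadjusted p under 0.05) with limma. The largest such contrast among the members was the diet effect on Slc4a1. At 3 days low minus control diet averaged -0.39 over 4 matched pairs, all of them negative, and at 5 days it averaged -0.04 over 6 pairs, of which 2 were positive. The difference between them, 5 minus 3 days, was 0.36 ± 0.15 (SE), with an unadjusted p of 0.0313 and an adjusted p of 1. In normal mice at 3 days Slc4a1 read 482.8 and 537.5 on control diet against 338.8 and 370.5 on low phosphate diet, from 2 arrays per group. For genotype, Slc4a1 was higher in Hyp in all 10 matched pairs. Its mean difference was 0.29 over 6 pairs at 5 days and 0.43 over 4 pairs at 3 days. Neither time passed on its own, with a limma adjusted p of 0.299 on 5 day and 0.333 on 3 day arrays only. Alas2, whose genotype difference was not established, averaged 0.58 at 5 days (6 of 6 pairs positive) and 0.25 at 3 days (3 of 4). Its contrast between the times was 0.33 ± 0.31 (SE, adjusted p = 0.929).

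**Figure D3:**
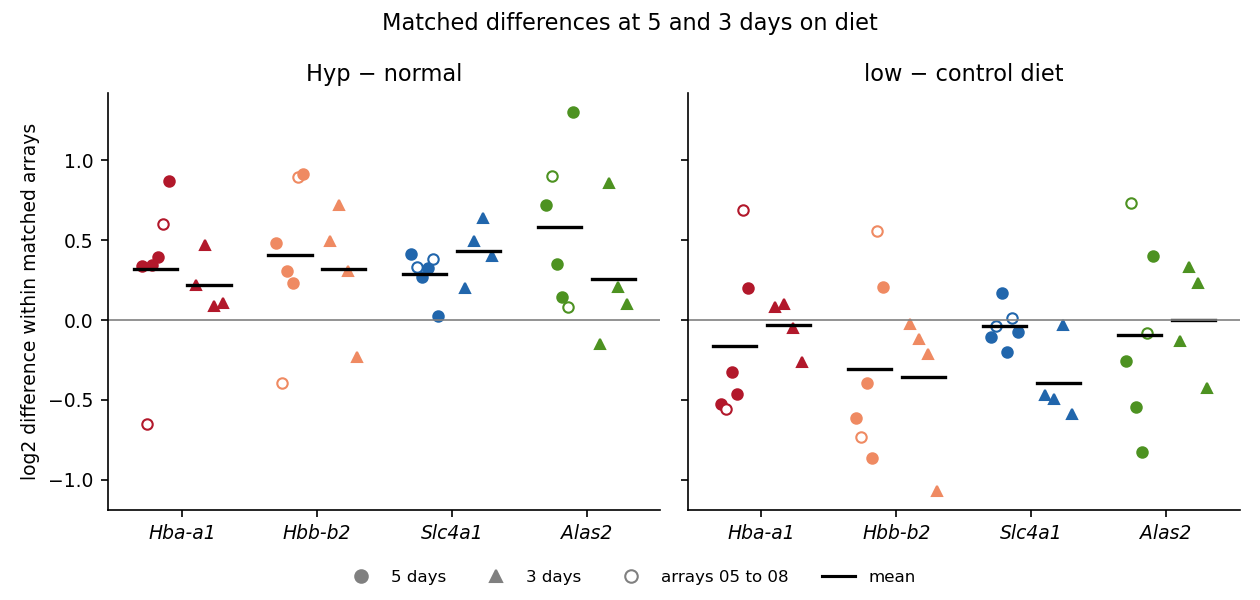
Log2 differences of intensity + 38 between arrays matched for sex and days, for Hyp minus normal (left) and low minus control diet (right), at 5 days (circles, 6 pairs) and 3 days (triangles, 4 pairs), with bars at the mean and open circles for arrays 05 to 08. All 10 Slc4a1 points of the left panel lie above 0, and its 3 day points in the right panel lie at or below -0.03.

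Sex was the remaining term, with 16.6% of probe sets past the test (1445, but 19 without arrays 05 to 08). Alas2, an X-linked gene, read lower in female than in male arrays by -0.40 ± 0.15 (SE, adjusted p = 0.0795). The difference without arrays 05 to 08 was -0.09 (adjusted p = 0.977). The means of Alas2 were 166.1 ± 50.9 (SD) on arrays 05 to 08 and 240.2 ± 69.7 on the 4 female arrays at 3 days, against 300.7 ± 116 and 252.7 ± 22.2 for males at 5 and 3 days. The other members differed by -0.21 (Hbb-b2), -0.15 (Hba-a1) and 0.12 (Slc4a1), with adjusted p-values of 0.367 to 0.43.

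The member probe sets of the 2 globins rose and fell together from array to array. The probe set 162457_f_at, which names Hba-a2 and Hba-a1, correlated at only 0.253 with Hba-a1 and 0.21 with Hbb-b2. Over 20 arrays Hba-a1 and Hbb-b2 correlated at a Pearson r of 0.912 (adjusted permutation p = 6e-05, the raw p of 1e-05 being the smallest that 100000 resamples can give) and a Spearman rho of 0.847 (adjusted permutation p = 0.00012). The r was 0.883 without the 2 arrays farthest from the median of Hba-a1, 0.941 within 5 days, 0.778 within 3 days and 0.889 without arrays 05 to 08. After removing group, sex and days it was 0.869. Arrays 03 and 17, both Hyp on control diet, were at the upper end for both globins, and arrays 06, 07 and 20 at the lower end.

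Alas2 correlated with Hba-a1 at r = 0.657 (rho = 0.767, adjusted permutation p of r 0.00312 and of rho 0.00042) and with Hbb-b2 at r = 0.678 (rho = 0.711, adjusted permutation p of r 0.00312 and of rho 0.00136). Without the 2 arrays farthest from the median of the globin, not of Alas2, these were 0.714 and 0.572. Without arrays 05 to 08 they were 0.838 and 0.73. After removing group, sex and days they were 0.465 and 0.499. Within 5 days they were 0.671 and 0.755, and within 3 days 0.742 and 0.475. Slc4a1 correlated with Hbb-b2 at r = 0.511 (rho = 0.501, adjusted permutation p 0.0327 and 0.0388), and at 0.34 within 5 days and 0.797 within 3 days. The r was 0.458 without the 2 arrays farthest from the median of Hbb-b2. With Hba-a1 its r was 0.364 (rho = 0.426, adjusted permutation p 0.138 and 0.0737) and with Alas2 0.295 (rho = 0.265, adjusted permutation p 0.205 and 0.259). Without arrays 05 to 08 the r of Slc4a1 was 0.651 with Hbb-b2, 0.53 with Hba-a1 and 0.33 with Alas2. After removing group, sex and days, Slc4a1 had an r of 0.221 with Hbb-b2, -0.09 with Hba-a1 and -0.01 with Alas2. These are the 6 relations among the members, and their p-values were adjusted over the 6.

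**Figure D4:**
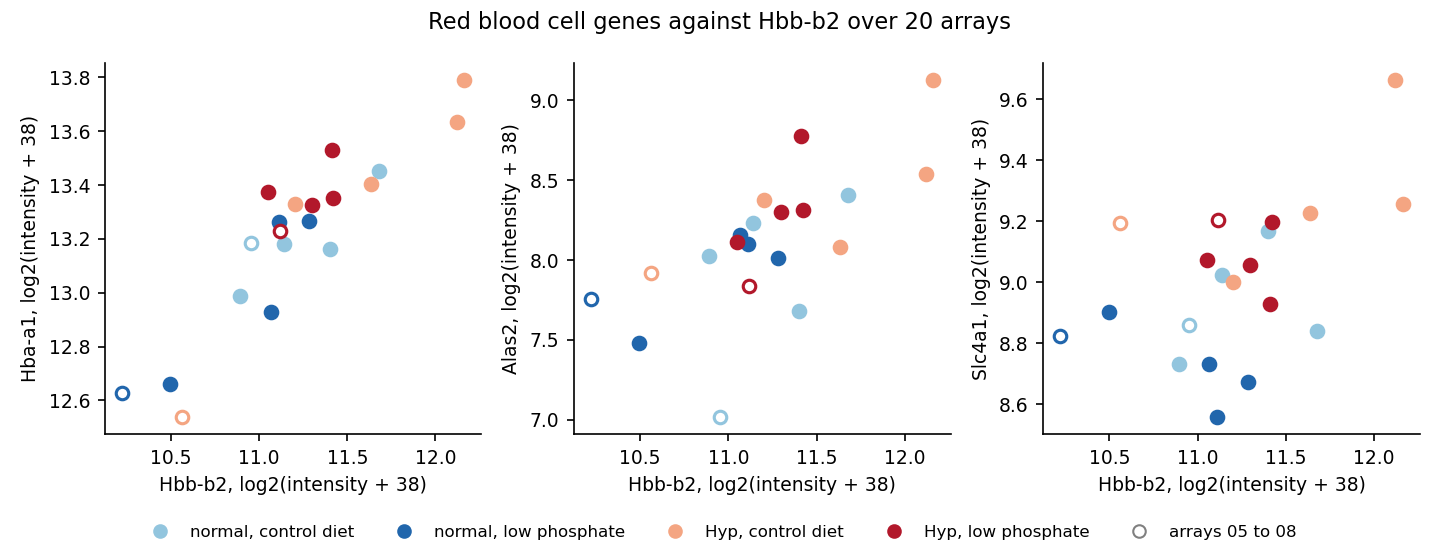
Each of the 20 arrays by log2(intensity + 38) of Hbb-b2 and of Hba-a1, Alas2 or Slc4a1, coloured by group, with arrays 05 to 08 open. Pearson r with Hbb-b2 was 0.912 for Hba-a1, 0.678 for Alas2 and 0.511 for Slc4a1, and differences between these r were not tested.

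The genes whose pattern over the 20 arrays was most like that of a member were named by the 5 highest Pearson correlations. For Hba-a1 they were Icam2, an adhesion molecule of endothelium, platelets and leukocytes (0.858), the interferon response factor Irf7 (0.790), Sec14l1 (0.775), Lgals3bp (0.756) and the complement chain C1qc (0.739). For Hbb-b2 they were again Icam2 (0.814) and Sec14l1 (0.759), with the interferon-induced Ifitm3 (0.812), Plac8 (0.801) and the B cell receptor Cd72 (0.764). For Slc4a1 they were Rnase4 (0.823), Bex4 (0.814), Prom1 (0.772), the drug exporter Abcb1b (0.759) and Slc12a3, the sodium chloride cotransporter of the distal convoluted tubule (0.753). For Alas2 they were Mtx1 (0.866), Tubg2 (0.773), Rab5b (0.771), Rbck1 (0.762) and Map1lc3b (0.723). No gene of the Slc4a1 or Alas2 groups of 5 stood among the 5 of another member.

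Once group, sex and days were removed, the genes most like each member were others. They were Fcgbp, Olfr2, Fes, Tnp2 and Serpinf2 for Hba-a1 (0.840 to 0.889), and Vcl, Met, Creb1, Fes and Pygo2 for Hbb-b2 (0.823 to 0.884). For Slc4a1 they were Stab1, Bmp6, Dgat1, Tfb2m and Tspan8 (0.720 to 0.744), and for Alas2 Colq, Cyp2a12, Lox, Rrad and Coro1c (0.779 to 0.847). Several of these, such as Fes with a mean intensity of 79.8 and Olfr2 with 93.6, were dim.

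Other genes of the red cell program were compared between Hyp and normal mice as lists, each gene by its brightest probe set and leaving out the members. In heme synthesis 0 of 8 tested genes passed (2 at an unadjusted p under 0.05) and 3 had a positive difference, with a median of -0.10. Its brightest genes were Alas1, the housekeeping form of the enzyme, at -0.14, and Alad, the second enzyme of the pathway, at -0.28 (adjusted p = 0.25). In the red cell membrane and its skeleton 0 of 4 passed (1 unadjusted) and 2 were positive: Ank1, which anchors band 3 to spectrin, differed by 0.07, Rhag by 0.38 (adjusted p = 0.205), Dmtn by -0.17 and Rhd by -0.21. The band 3 binding protein Epb42 had a mean of 39.8 and fell below the filter.

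Of the erythroid transcription factors and precursor genes 0 of 7 passed (0 unadjusted) and 5 were positive, with a median of 0.04. Klf1 differed by 0.04 and the transferrin receptor Tfrc by 0.42 ± 0.26 (SE, adjusted p = 0.456), while Tal1, Gfi1b and Hemgn, at means of 23.2, 59.7 and 36.2, fell below the filter. Of the red cell enzymes and other reticulocyte genes 0 of 8 passed (2 unadjusted) and 6 were positive, with a median of 0.12. Bpgm, which makes the regulator of oxygen release 2,3-bisphosphoglycerate, differed by 0.12 and the antioxidant Prdx2 by -0.14. In erythropoietin and oxygen sensing 0 of 11 passed (1 unadjusted) and 4 were positive. Epo, given although it is not among the brightest of its list, had a mean of 84.8 and differed by 0.13 ± 0.23 (SE, adjusted p = 0.817). For all of these lists the median over all tested probe sets was 0.02.

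In iron and heme handling 2 of 17 tested genes passed, both higher in Hyp, beside 1.28% of all probe sets. Of its genes 11 were positive, with a median of 0.08. Over all lists 3 genes other than the members passed, the third being Slc12a3 of the kidney tubule list. Hmox1, the heme oxygenase that breaks heme down, averaged 946.3 ± 191 (SD, n = 5) and 1143.7 ± 220 in normal mice on control and low phosphate diet, and 1326.3 ± 257 and 1886.0 ± 429 in Hyp mice. Its averaged difference was 0.58 ± 0.10 (SE, adjusted p = 0.00535). Of 35 alternatives 6 lost this call, among them 0 of the 20 that left out 1 array. The call stayed without arrays 05 to 08 (0.59, adjusted p = 0.036), without array 10 (0.57, 0.0147) and with the set of array numbers as a block (0.51, 0.0327). On low phosphate diet alone the difference of Hmox1 was 0.69 (adjusted p = 0.04). There its size held but the call did not without arrays 05 to 08 (0.68, adjusted p = 0.238), without array 10 (0.68, 0.109) or with the block (0.62, 0.0904), and the call was lost in 13 of 20 fits that left out 1 array. Cp, the copper protein ceruloplasmin that oxidises iron, averaged 304.9 ± 83.0 and 525.7 ± 219 in normal and 514.0 ± 207 and 683.3 ± 207 in Hyp mice on the 2 diets. Its difference was 0.51 ± 0.12 (SE, adjusted p = 0.0497), and 26 of 35 alternatives lost this call, among them 15 of the 20 that left out 1 array. Without arrays 05 to 08 it was 0.54 (adjusted p = 0.118), without array 10 it was 0.45 (0.0861) and with the block 0.48 (0.0834).

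In the same comparison Slc12a3 of the kidney tubule list rose by 0.33 (adjusted p = 0.0345). Without arrays 05 to 08 its difference was 0.38 (adjusted p = 0.058), without array 10 it was 0.35 (0.0412), and 13 of 20 fits that left out 1 array lost the call. In no comparison of the diets did a gene of the red cell, heme, iron or oxygen lists pass, and of the tubule list Slc22a6 fell by 0.48 on low phosphate diet (adjusted p = 0.00749). It fell by 0.44 without arrays 05 to 08 (adjusted p = 0.0858) and by 0.48 without array 10 (adjusted p = 0.016), and 0 of 20 fits that left out 1 array lost its call.

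**Figure D5:**
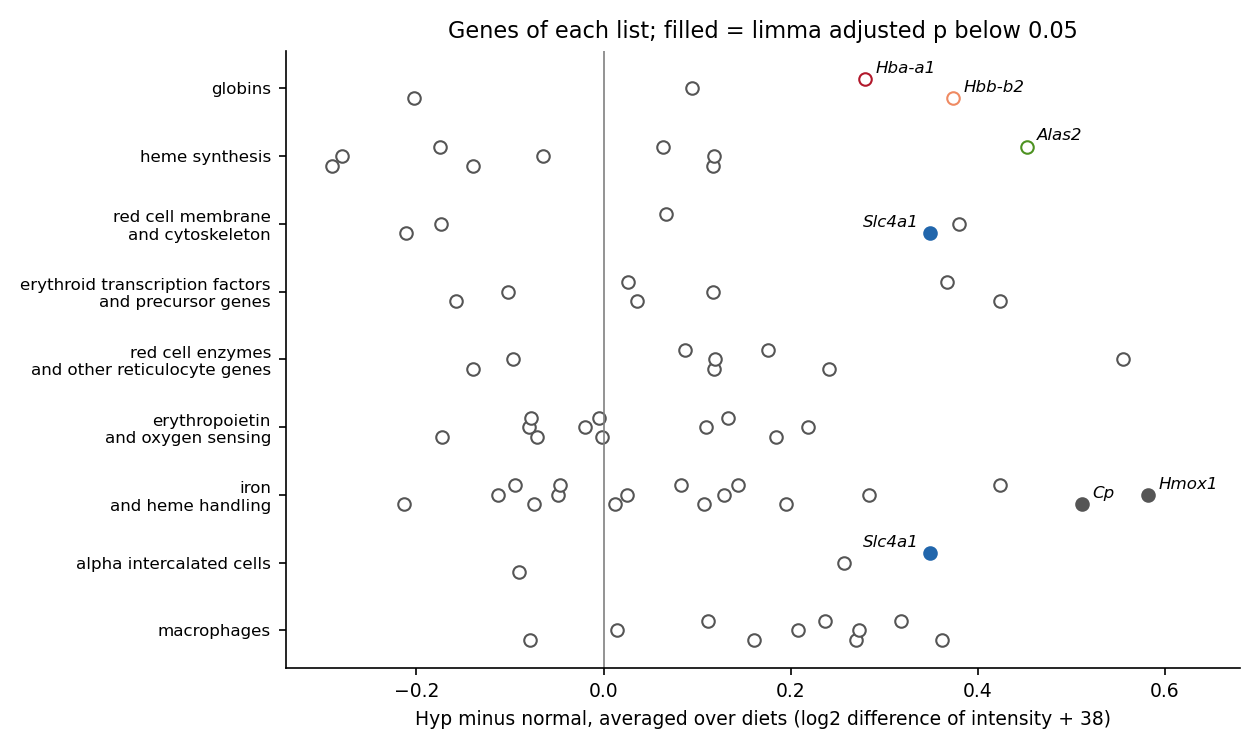
Hyp minus normal log2 differences of intensity + 38, averaged over diets, for the tested genes of 9 lists, with the members named. Filled points passed an adjusted p of 0.05: Slc4a1, which is in 2 of the lists, and Hmox1 and Cp of iron and heme handling.

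Markers of other cells were read beside the members. Of the macrophage list 0 of 10 tested genes passed (4 at an unadjusted p under 0.05), but 9 were higher in Hyp, with a median of 0.22 against 0.02 for all probe sets. Its summed intensity over 14 genes was 3599.4 to 4146.0 in normal mice on control diet, 3730.2 to 3903.7 in normal mice on low phosphate diet, 3929.0 to 5113.0 in Hyp mice on control diet and 4032.0 to 4596.9 in Hyp mice on low phosphate diet. The sum, in which bright genes weigh most, thus ran higher in Hyp mice. The genotypes did not overlap on low phosphate diet but did on control diet. The sums of the other lists overlapped between the genotypes on both diets, so this was seen in a single list among many. How often sums of other genes do so was not counted, and the sum itself was not put to a test. A genotype difference in macrophage content was therefore not established, and the part of the sum in the Slc4a1 result was not tested. Among its brightest genes C1qc differed by 0.27 and C1qa by 0.27, Cd14 by 0.16 and Csf1r by -0.08, while Adgre1, Itgam, Aif1 and Spic, at means of 49.8, 24.9, 31.1 and 9.3, fell below the filter. Of the other blood and vessel lists 0 genes passed: 5 of 5 neutrophil, 3 of 5 lymphocyte, 2 of 2 platelet and 5 of 8 endothelial genes were positive, with 0, 2, 0 and 2 at an unadjusted p under 0.05.

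The intercalated cell list could say little of Slc4a1, because only Car2 and Kit of its other 13 genes were named by a probe set. Car2, a cytosolic carbonic anhydrase that other tubule cells also make, differed by -0.09 ± 0.07 (SE) and Kit by 0.26 ± 0.11 (SE, adjusted p = 0.309). Their sum was 6686.0 to 8077.0 and 5576.2 to 6886.1 in normal mice on control and low phosphate diet, and 6101.9 to 7292.9 and 5098.0 to 6986.9 in Hyp mice. Blood and kidney sources of Slc4a1 cannot be told apart by this probe set.

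Between 5 and 3 days 44 of 93 tested list genes passed, or 47.3%, beside 40.9% of all probe sets, and none of these calls held without arrays 05 to 08. The 29 that rose were Ank1, Rhag, Rhd, Klf1, Nfe2, Tfrc, Pklr, Gpx1, Tspo2, Hif3a, Hmox1, Blvra, Hp, Hpx, Lcn2, Gp5, S100a8, Camp, Elane, Csf3r, Cd4, Cd79a, Ms4a1, Ighm, Gzmb, Cd14, Mrc1, C1qb and Kap. The 15 that fell were Alad, Urod, Dmtn, Zfpm1, Prdx2, Egln2, Vegfa, Fth1, Csf1r, C1qa, Tie1, Eng, Slc34a1, Slc12a3 and Aqp2. Tfrc, which brings iron into erythroid precursors, rose by 1.08 (adjusted p = 0.00585) with all arrays and by 0.85 (adjusted p = 0.255) without those 4. Klf1, the erythroid activator of beta globin, rose by 0.46 and by 0.04 respectively, with adjusted p-values of 0.0242 and 0.901. Their list, erythroid transcription factors and precursor genes, did not rise as a whole: 3 of 7 tested genes were positive, with a median of -0.01. Zfpm1 of that list differed by -0.34 (adjusted p = 0.0458) with all arrays and by -0.02 (adjusted p = 0.93) without those 4. All 5 tested genes each of the neutrophil and lymphocyte lists were among the 29, of 13 genes each on the array. The rest of these lists fell below the filter, which took the mean of all arrays, 05 to 08 among them. In the same comparison the member globin probe sets read lower without passing, while 162457_f_at read higher.

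Between the sexes 19 of the 93 passed, or 20.4%, beside 16.6% of all probe sets, and again 0 did so without arrays 05 to 08. Both shares were near those of all probe sets. The 13 higher in females were Hbb-y, Ank1, Rhag, Hif3a, Lcn2, Cp, Heph, Csf3r, Cd4, Cd79a, Gzmb, Mrc1 and Cdh5, and the 6 lower were Urod, Dmtn, Slc11a2, Csf1r, C1qa and Slc22a6. Rhag, a partner of the Rh proteins in the red cell membrane, was higher by 0.42 with all arrays and differed by -0.05 without those 4.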

How the data were processed

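Kidney RNA, pooled from 3 mice per array, was measured on 20 arrays. The table the authors deposited gives each probe set a linear intensity on every array, scaled by the authors to a common trimmed mean, and the sources used here name no software for it. Intensity carries no read depth, so the number of arrays limits the precision, and p-values measure the spread between pools. Probe sets were named from the platform annotation: 10833 name 1 gene, 396 several and 1193 none. The 66 control probe sets were left out, and 0 columns were left unused.

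Values were taken as log2(intensity + 38), 38 being the 20th percentile of all values, which understates the change of dim genes. Probe sets with a mean at or above the 30th percentile (8695 of 12422) were fitted over the 20 arrays with limma 3.58.1 (R 4.3.3), with terms for group and for each combination of sex and days. Effects by days were fitted with groups within days and sex within days. P-values are two-sided, adjusted by Benjamini-Hochberg over all probe sets within a comparison, with a threshold of 0.05. The script was tested on simulated data. Correlations used two-sided permutation tests. The naming rule took the 4 members, every list gene past the threshold, up to 4 more of the brightest per list, and the 5 genes most like each member. The members, lists and tests were chosen with earlier results of these data known. Alternatives changed the offset, normalization, filter, model, weights and arrays used.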

Additional observations from a re-analysis of the deposited data

How the results depend on the processing

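Over 1508 values of the members under alternatives, 1392 kept their direction and their side of the threshold, 75 changed sign without being called in either setting, and 41 gained or lost a call. Slc4a1 in Hyp minus normal averaged over diets was the single member called, and all 35 alternatives kept its direction (0.29 to 0.43) while 10 kept the call. The count of called members there fell from 1 to 0 with quantile normalization (adjusted p of Slc4a1 0.0523), no filter (0.0636), no terms for sex and days (0.138), without arrays 05 to 08 (0.136), with 5 day (0.299), 3 day (0.333), male (0.322) or female arrays only (0.752), and was 0 to 1 when each array was left out. Between 5 and 3 days the count rose from 0 to 1 with an offset of 100, a filter at the median, trend and robust variances or the set of array numbers as a block (Hbb-b2), and with female arrays only (Alas2), and was 0 to 2 with each array left out. Between the sexes it rose from 0 to 1, for Alas2, with quantile normalization, array weights, without arrays 09, 10, 19 and 20, and with 5 day arrays only, and was 0 to 1 with each array left out. The cause was not tested. Without arrays 05 to 08 the probe sets called fell from 111 to 61 for genotype averaged over diets, from 41 to 20 for diet averaged over genotypes, from 22 to 3 and 31 to 19 for genotype on control and low phosphate diet, and from 16 to 5 and 13 to 6 for diet in normal and Hyp mice. Of the list genes, Urod (0.144), Rhag (-0.0473) and Hif3a (-0.022) changed sign between the sexes without arrays 05 to 08 or with 3 day arrays only, and Tie1 (0.0049) did between 5 and 3 days without arrays 05 to 08 or with male arrays only. Fits without terms for sex and days were not run for days and sex, nor fits on female arrays alone for the effects by days.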
